A study of Mus musculus with 12 samples.

Results

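The cell cycle genes described here are 52 genes of cell division and its brakes, found by the mouse symbol of their Ensembl identifier in the count tables of 12 spinal cord libraries. All 52 were found among 54838 listed genes, and all 52 passed the filter on low counts that left 31109 genes for testing. They comprise 2 proliferation markers, 5 G1 cyclins and kinases, 4 genes of the G1 to S transition, 11 genes that license or unwind replication origins, 5 genes of DNA synthesis, 10 G2/M drivers, 4 genes of the mitotic checkpoint and anaphase-promoting complex, 8 genes of the spindle and cytokinesis, and 3 inhibitors of cyclin-dependent kinases. The RNA came from spinal cords of mice at postnatal day 60, from cells separated on a Percoll density gradient and not sorted. Control mice were Olig1+/+;Tet1fl/fl, which GEO's labels call wildtype, and mutant mice were Olig1cre/+;Tet1fl/fl. All animals thus carried floxed Tet1 alleles, and Olig1-cre acts in the oligodendroglial lineage while other cells of the preparation keep Tet1. Each genotype was sampled unlesioned and 4 days after a demyelinating injection into ventrolateral white matter (4dpl), for which the agent was lysolecithin, with 3 libraries in each of the 4 groups. The study describes unlesioned tissue as coming from the side opposite the injection, but does not name which libraries share a mouse, so p-values measure the spread between libraries.

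A dividing cell passes from G1 through DNA replication in S phase and then through G2 into mitosis. D-type cyclins with Cdk4 or Cdk6 inactivate the retinoblastoma protein, which frees E2F factors to switch on replication genes, and cyclin B with Cdk1 later drives mitosis. In demyelinated white matter, oligodendrocyte progenitors and microglia are known to divide in the first days, before progenitors differentiate and rebuild myelin. These genes are used by every dividing cell, so their level in whole-preparation RNA sums over all cell types present. In such bulk RNA, a lower value from fewer cells of a type and a lower value from less RNA per cell cannot be told apart.

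Total counts per library were between 34805086 and 67251544. Levels are given as CPM, counts scaled to a common library total after TMM scaling of library size, and a gene was called changed at p under 0.01 and Benjamini-Hochberg adjusted p under 0.05 by edgeR's quasi-likelihood test fitted to all 12 libraries, with adjustment over all genes tested. Tet1 was at 15.0, 14.9 and 18.3 CPM in the control unlesioned libraries and at 12.5, 11.7 and 12.04 CPM at 4dpl. The libraries labelled mutant had 16.4, 9.94 and 12.1 CPM unlesioned and 13.4, 10.9 and 21.5 CPM at 4dpl, so the whole-gene count of Tet1 overlapped between genotypes at both states and genotypes are taken from the labels. The preparation held abundant RNA of other cells. Summed over 8 genes, neutrophil markers ranged from 21918 to 120150 CPM across libraries, 7 oligodendrocyte markers from 14492 to 68460 CPM, 7 microglia markers from 2280 to 13144 CPM and 6 markers of oligodendrocyte progenitors from 153 to 628 CPM. Progenitor genes of the bone marrow were also present, among them Mpo at 119 to 883 CPM and Elane at 67.0 to 657 CPM.

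Most cell cycle genes did not pass the test between unlesioned and 4dpl tissue. Averaged over both genotypes, 4 of the 52 were called higher at 4dpl, namely Cdk4, Gins2, Gins1 and Pcna, and 0 were called lower by edgeR. Over all genes tested, 14.2% were called higher and 18.6% lower in this comparison, and among the 10134 genes at or above the mean level of the lowest member 39.9% were called higher and 0.562% lower. The 52 genes had a median log2 fold change of 0.06, with 32 above 0, against a median of -0.28 over all genes tested and 0.46 over the genes of that level. The median of the 52 had no stable sign, running from -0.09 with 23 above 0 without mutant 4dpl replicate 2 to 0.24 with 41 above 0 without control unlesioned replicate 1. It was also below 0 without control unlesioned replicate 3 (-0.01) or mutant unlesioned replicate 1 (-0.02), and higher without mutant unlesioned replicate 2 (0.23) or mutant 4dpl replicate 3 (0.21). Of the 52, 8 had an unadjusted p under 0.05. Cdk4 was the only one whose 6 libraries at 4dpl all lay above the 6 unlesioned libraries, an arrangement found in 7.44% of all genes tested, and 0 lay wholly below, as did 7.42% of all genes. Within the control alone 1 of the 52 was called higher and 0 lower, where 5.12% and 5.01% of all genes and 14.3% and 0.77% of the genes of that level were called. Within the libraries labelled mutant 0 were called by edgeR, where 0.0225% of all genes were called higher and 0.113% lower, and 0.0592% and 0.0789% of the genes of that level, and 5 had an unadjusted p under 0.05. DESeq2 and limma voom each called 1 of the 52 there, Cdk4.

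**Figure D1:**
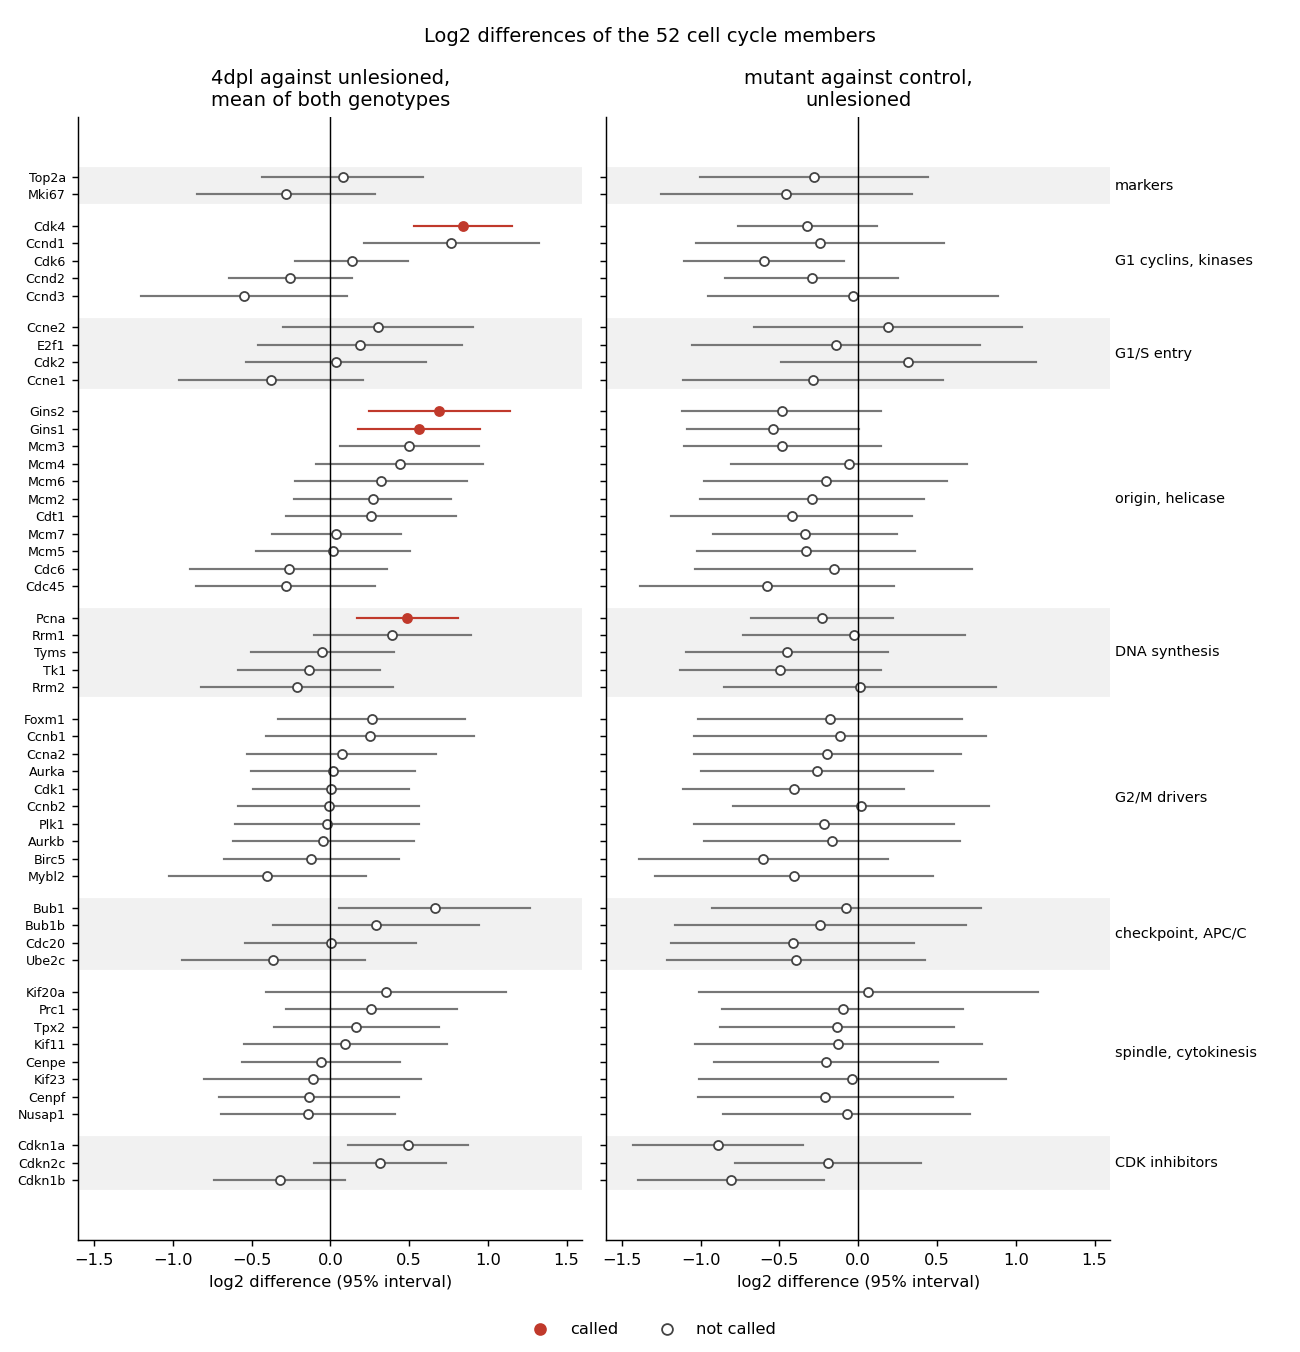
Log2 differences (x axis) of the 52 cell cycle genes (rows, grouped by role) at 4dpl against unlesioned tissue averaged over genotypes (left) and in unlesioned libraries labelled mutant against control (right). Points are edgeR estimates, lines their 95% intervals and red points called genes. On the left 4 genes are called and estimates fall on both sides of 0, whereas on the right 47 of 52 lie below 0 and none is called, a one-sided picture that is lost without control unlesioned replicate 1 (30 of 52 above 0).

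The proliferation markers did not separate lesioned from unlesioned tissue. Mki67, on chromosome 7 of GRCm38 from 135689784 to 135716361, encodes the Ki-67 protein of dividing cells. It was at 159, 112 and 86.1 CPM in control unlesioned libraries and at 95.3, 89.5 and 79.2 CPM at 4dpl. In the libraries labelled mutant it was at 61.1, 133 and 65.2 CPM unlesioned and at 84.3, 112 and 41.1 CPM at 4dpl. The groups overlapped in both genotypes, and the averaged log2 fold change was -0.28 (95% interval -0.84 to 0.28, edgeR adjusted p = 0.396). Top2a, the topoisomerase that untangles replicated chromosomes, lies on chromosome 11 from 98992943 to 99024189. Control libraries held 154, 100.1 and 74.7 CPM of Top2a unlesioned and 119, 104 and 97.8 CPM at 4dpl, and libraries labelled mutant held 72.2, 122 and 76.6 CPM and 102, 147 and 59.996 CPM. Its averaged log2 fold change was 0.08 (95% interval -0.43 to 0.59, edgeR adjusted p = 0.807), and with RLE in place of TMM scaling it was -0.02. The intervals leave room for changes of moderate size in either direction.

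**Figure D2:**
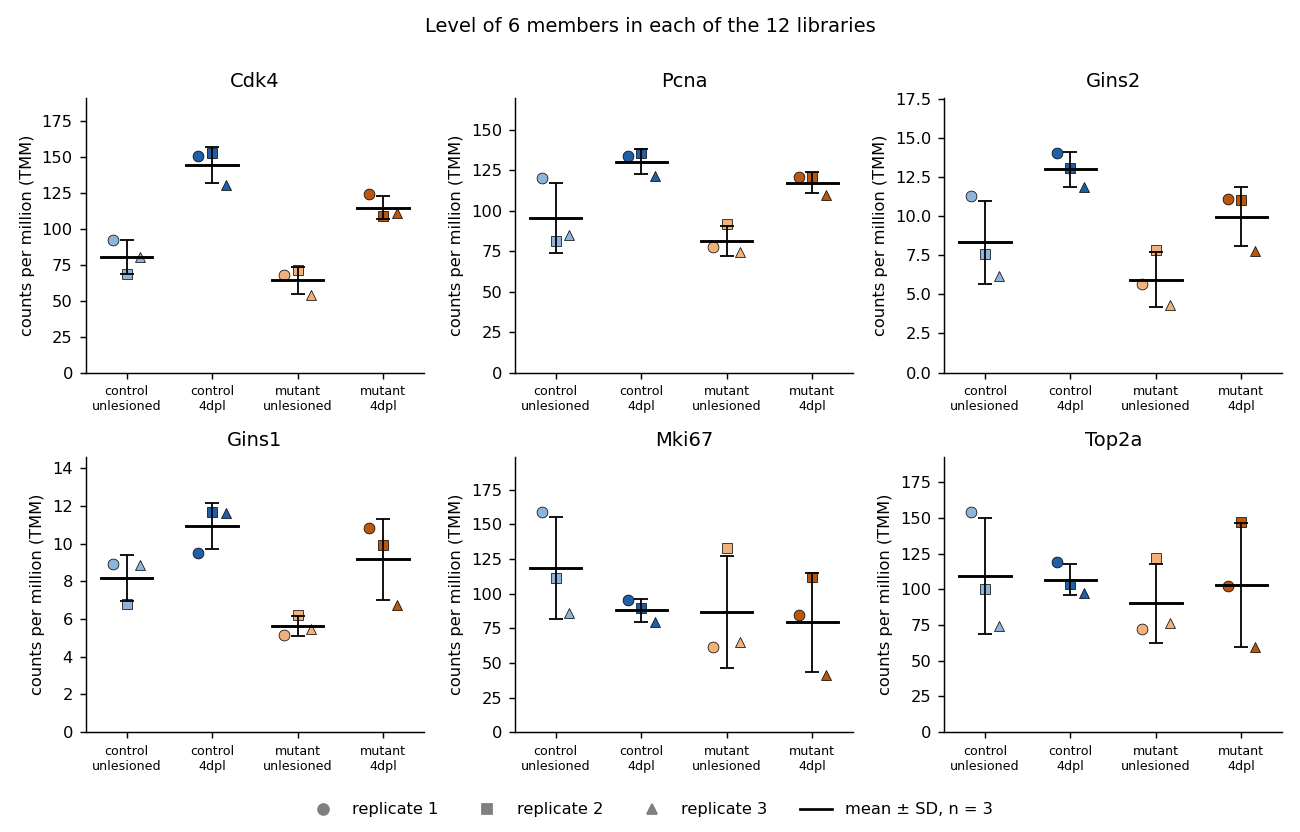
CPM (y axis, from 0) of Cdk4, Pcna, Gins2, Gins1, Mki67 and Top2a in the 12 libraries by group (x axis). Symbols mark replicates 1 to 3, and bars give the mean and SD of 3 libraries. Cdk4 separates 4dpl from unlesioned libraries in both genotypes, while Mki67 and Top2a overlap.

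Among the G1 cyclins and kinases, Cdk4 rose and the others did not pass the test. Cdk4, the kinase partner of the D-type cyclins, lies on chromosome 10 from 127063534 to 127067920. It was at 91.9, 68.5 and 80.5 CPM in control unlesioned libraries and at 150.2, 153 and 130.03 CPM at 4dpl. The libraries labelled mutant held 67.5, 71.3 and 53.6 CPM unlesioned and 124, 109 and 111 CPM at 4dpl. Every library at 4dpl was thus above every unlesioned library of either genotype. The log2 fold change was 0.85 in the control (SE 0.21, edgeR adjusted p = 0.0344), 0.84 in the libraries labelled mutant (SE 0.21, edgeR adjusted p = 0.0544) and 0.84 averaged over genotypes (SE 0.15, edgeR adjusted p = 0.0030). The averaged call was kept in each of the 25 alternative settings that gave this comparison. The call within the control was lost without control unlesioned replicate 2 or 3, control 4dpl replicate 1 or 2, or mutant unlesioned replicate 3, and 19.7% of the exonic bases of Cdk4 are shared with Tspan31 on the opposite strand.

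Ccnd1, cyclin D1, was at 14.1, 10.2 and 12.8 CPM in control unlesioned libraries and at 16.6, 20.1 and 27.9 CPM at 4dpl. It was at 18.1, 6.98 and 6.18 CPM in the unlesioned libraries labelled mutant and at 21.6, 14.5 and 15.8 CPM at 4dpl. The control groups did not overlap, the mutant groups did, and the averaged log2 fold change of 0.77 (SE 0.26, edgeR adjusted p = 0.0313) missed the unadjusted threshold. Ccnd1 lay at the edge of the call. With all 12 libraries limma voom called it (0.82, adjusted p = 0.0192) while DESeq2 did not, and edgeR called it with no filter on low counts, with legacy set to FALSE and with a block by label number. It was also called without mutant unlesioned replicate 1 (1.12, edgeR adjusted p = 0.0026), control 4dpl replicate 1 (0.87) or mutant 4dpl replicate 2 (0.85). Cdk6, the other kinase of this step, had an averaged log2 fold change of 0.14. The D-type cyclins that remain had values below 0, -0.25 for Ccnd2 and -0.55 for Ccnd3, and neither passed the test.

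Genes of the G1 to S transition gave 0 calls of 4 by edgeR, and 0 had an unadjusted p under 0.05. Cyclin E activates Cdk2 at this step. Ccne1 was at 21.7, 11.9 and 7.82 CPM in control unlesioned libraries and 9.14, 11.5 and 6.77 CPM at 4dpl, and at 8.62, 15.8 and 9.49 CPM and 11.03, 12.9 and 6.62 CPM in the libraries labelled mutant. Ccne2 was at 14.9, 5.89 and 11.1 CPM and 13.3, 11.9 and 11.3 CPM in the control, and at 11.3, 13.3 and 11.8 CPM and 15.0, 26.3 and 7.23 CPM in the libraries labelled mutant. Groups of both genes overlapped, with averaged log2 fold changes of -0.37 for Ccne1 and 0.30 for Ccne2. Cdk2 and the transcription factor E2f1 had values of 0.03 and 0.19.

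Of the 11 genes that license or unwind replication origins, 2 were called higher at 4dpl and 9 had an averaged log2 fold change above 0, the median being 0.27. Genes at or above the mean level of the lowest member gave no smaller values. Of those genes 39.9% were called higher and 85.6% were above 0, with a median of 0.46. Gins1 and Gins2 encode subunits of the GINS complex, which joins the MCM ring and Cdc45 to form the replicative helicase. Gins2, on chromosome 8 from 120578633 to 120589304, was at 11.3, 7.59 and 6.15 CPM in control unlesioned libraries and at 14.1, 13.1 and 11.9 CPM at 4dpl. Libraries labelled mutant held Gins2 at 5.69, 7.82 and 4.35 CPM unlesioned and at 11.1, 11.1 and 7.78 CPM at 4dpl. The control groups did not overlap and the mutant groups met at a single pair of libraries, 7.82 unlesioned and 7.78 at 4dpl. The averaged log2 fold change of Gins2 was 0.69 (SE 0.21, edgeR adjusted p = 0.0200). Of its exonic bases 67.3% are shared with Gse1 on the opposite strand. The strand setting of the counting is not given in the sources used here, so reads of the pair may be mixed. The same limit holds for Cdk4, Kif20a, Ccnd1 and Ube2c. The last 3 share 33.2% with Cdc23, 23.4% with LTO1 and 22.8% with Tnnc2, each on the opposite strand.

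Gins1, on chromosome 2 from 150905400 to 150931280, was at 8.94, 6.78 and 8.85 CPM in control unlesioned libraries and at 9.53, 11.7 and 11.7 CPM at 4dpl. It was at 5.18, 6.23 and 5.48 CPM in the unlesioned libraries labelled mutant and at 10.8, 9.90 and 6.76 CPM at 4dpl. Neither genotype's groups overlapped, and the averaged log2 fold change was 0.56 (SE 0.18, edgeR adjusted p = 0.0255). Within single genotypes, libraries of the groups did not overlap for 5 higher and 2 lower members in the control, where 16.5% and 21.4% of all genes did not overlap, and for 4 higher and 0 lower members in the libraries labelled mutant, where the shares were 18.8% and 23.2%. The helicase subunits Mcm2 to Mcm7 had averaged log2 fold changes between 0.02 for Mcm5 and 0.50 for Mcm3, the latter with an edgeR adjusted p of 0.0641. Cdt1, which loads the MCM ring, had 0.26, whereas Cdc6, its partner in loading, had -0.27 and Cdc45 -0.28.

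Of the 5 genes of DNA synthesis, Pcna rose. It encodes the clamp that holds DNA polymerase on its template, lies on chromosome 2 from 132249162 to 132253314, and had the highest level per kilobase of exon of the 52 genes, 44.2 CPM per kb averaged over the groups. Pcna was at 120 CPM in control unlesioned replicate 1 and at 81.1 and 85.1 CPM in replicates 2 and 3, and at 134, 136 and 122 CPM at 4dpl. Libraries labelled mutant held 77.7, 91.7 and 74.6 CPM unlesioned and 121, 121 and 110 CPM at 4dpl. The groups did not overlap within either genotype, and across genotypes only control unlesioned replicate 1 reached the range of the lesioned libraries. The averaged log2 fold change of Pcna was 0.49 (SE 0.15, edgeR adjusted p = 0.0205). Rrm1, the large subunit of ribonucleotide reductase, was at 116, 42.4 and 51.8 CPM in control unlesioned libraries and 108, 98.4 and 87.5 CPM at 4dpl, and at 60.5, 79.6 and 66.1 CPM and 89.3, 104 and 61.9 CPM in the libraries labelled mutant. Its averaged log2 fold change of 0.39 did not pass the test, and replicate 1 of the unlesioned control lay above all other libraries. Rrm2, Tyms and Tk1, which supply nucleotides, had values of -0.21, -0.05 and -0.13.

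Calls of Gins1, Gins2 and Pcna depended on single libraries. In the 12 fits that left out 1 library each, Gins2 was not called in 6, Pcna in 7 and Gins1 in 8, where p was above 0.01 in each case. Their log2 fold changes stayed above 0, at 0.61 to 0.86 for Gins2, 0.46 to 0.62 for Pcna and 0.52 to 0.67 for Gins1. Gins2 lost its call without control unlesioned replicate 2 or 3, control 4dpl replicate 1, mutant unlesioned replicate 3, or mutant 4dpl replicate 1 or 2, with adjusted p by edgeR between 0.0367 and 0.0531. Pcna lost its call without any of those libraries or without control 4dpl replicate 2, with adjusted p by edgeR between 0.0362 and 0.0558. Gins1 lost its call without control unlesioned replicate 2 or 3, control 4dpl replicate 2 or 3, mutant unlesioned replicate 1 or 3, or mutant 4dpl replicate 1 or 2, with adjusted p by edgeR between 0.0395 and 0.0564. Cdk4 was the single member called without control unlesioned replicate 2 or 3, mutant unlesioned replicate 3 or mutant 4dpl replicate 1. Without control unlesioned replicate 1 the count rose from 4 to 10, with Mcm3, Mcm4, Mcm6, Rrm1, Bub1 and Cdkn1a added.

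Of the 22 genes of G2 and mitosis, 0 were called by edgeR, and 1, Bub1, had an unadjusted p under 0.05. The 10 G2/M drivers had a median averaged log2 fold change near 0, the 4 checkpoint genes 0.15 and the 8 spindle genes 0.02. Cdk1, the mitotic kinase, was at 65.0, 58.2 and 55.4 CPM in control unlesioned libraries and at 52.3, 57.0 and 50.1 CPM at 4dpl. Libraries labelled mutant held Cdk1 at 28.1, 62.5 and 43.8 CPM and at 53.3, 71.6 and 26.7 CPM. Groups overlapped in both genotypes, and the averaged log2 fold change was 0.01 (95% interval -0.49 to 0.50). Its sign turned with RLE scaling, at -0.10.

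Mybl2 and Foxm1 encode transcription factors of the G2/M programme. Mybl2 was at 23.9, 11.98 and 9.93 CPM in control unlesioned libraries and 15.1, 10.7 and 8.01 CPM at 4dpl, and at 9.49, 15.4 and 9.65 CPM and 7.93, 14.0 and 4.91 CPM in the libraries labelled mutant. Foxm1 was at 38.9, 15.9 and 13.7 CPM and 26.5, 31.0 and 21.5 CPM in the control, and at 15.3, 23.4 and 21.8 CPM and 28.1, 33.9 and 13.6 CPM in the libraries labelled mutant. Both overlapped between groups, with averaged log2 fold changes of -0.40 for Mybl2 and 0.26 for Foxm1. The cyclins Ccna2, Ccnb1 and Ccnb2 had values of 0.07, 0.25 and -0.01, and the kinases Plk1, Aurka and Aurkb -0.02, 0.02 and -0.04. Birc5, the survivin subunit of the chromosomal passenger complex, had -0.12.

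At the mitotic checkpoint, the kinase Bub1 was at 25.7, 9.20 and 13.01 CPM in control unlesioned libraries and at 25.4, 23.5 and 26.5 CPM at 4dpl. It was at 14.3, 17.8 and 13.3 CPM in the unlesioned libraries labelled mutant and at 30.2, 32.1 and 10.3 CPM at 4dpl. A single library in each comparison, control unlesioned replicate 1 and mutant 4dpl replicate 3, crossed into the other group. Its averaged log2 fold change was 0.66 (SE 0.28, edgeR adjusted p = 0.0723), and it was called without control unlesioned replicate 1 or without mutant 4dpl replicate 3. Ube2c, the ubiquitin-conjugating enzyme of the anaphase-promoting complex, was at 123, 92.8 and 71.2 CPM and 75.8, 70.6 and 49.7 CPM in the control, and at 43.9, 115 and 58.8 CPM and 67.2, 90.7 and 35.3 CPM in the libraries labelled mutant. Ube2c had an averaged log2 fold change of -0.36, Bub1b 0.29 and Cdc20, the activator of the complex, 0.00.

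The spindle and cytokinesis genes varied more between replicates than between groups. Prc1, which bundles the central spindle, was at 49.3, 25.7 and 22.8 CPM and 41.0, 35.9 and 32.3 CPM in the control, and at 22.1, 44.5 and 24.6 CPM and 40.9, 53.04 and 23.2 CPM in the libraries labelled mutant. Kif20a, a kinesin of cytokinesis, was at 35.8, 8.39 and 12.9 CPM and 32.3, 23.5 and 22.1 CPM in the control, and at 12.3, 30.8 and 16.7 CPM and 23.5, 36.2 and 11.9 CPM in the libraries labelled mutant. The averaged log2 fold changes were 0.26 for Prc1 and 0.35 for Kif20a, and the other 6 genes ran from -0.14 for Nusap1 to 0.17 for Tpx2.

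The mitotic genes moved together from library to library in 3 of the 4 groups. Each of the 22 was highest in replicate 1 of the unlesioned control, each of the 22 was highest in replicate 2 of both groups labelled mutant, and each of the 22 was lowest in replicate 3 of the mutant 4dpl group. In the control 4dpl group the order was mixed, with 14 highest in replicate 1, 6 in replicate 2 and 2 in replicate 3. Their summed level was 1289, 764 and 702 CPM in control unlesioned libraries and 951, 884 and 754 CPM at 4dpl. In the libraries labelled mutant it was 524, 1163 and 666 CPM unlesioned and 897, 1224 and 457 CPM at 4dpl. Group means lay between 785 and 918 CPM, and the SD over 3 libraries was 322 CPM in control unlesioned, 100.2 CPM in control 4dpl, 336 CPM in mutant unlesioned and 385 CPM in mutant 4dpl, so means differed by less than the SD in 3 of the 4 groups. The median of each gene's highest over lowest library was 2.10 in control unlesioned, 1.34 in control 4dpl, 2.28 in mutant unlesioned and 2.69 in mutant 4dpl.

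Markers of other cell types moved with this order in full or in part. Sums of 7 macrophage and monocyte markers followed the replicate order of the mitotic sums in each of the 4 groups. They were 19760, 14065 and 10202 CPM in control unlesioned libraries and 24677, 22412 and 16719 CPM at 4dpl. In the libraries labelled mutant they were 7196, 19656 and 11815 CPM unlesioned and 13094, 26813 and 11467 CPM at 4dpl. This list was not fitted as a covariate. Neutrophil markers summed to 95287, 98542 and 45554 CPM in control unlesioned libraries and to 36468, 29269 and 31055 CPM at 4dpl. In the libraries labelled mutant they summed to 30592, 120150 and 70728 CPM unlesioned and to 21918, 109952 and 33928 CPM at 4dpl, and all 8 of them were highest in replicate 2 of both groups, as were all 22 mitotic genes. Bone marrow progenitor markers summed to 1866, 1855 and 1291 CPM and 1262, 823 and 528 CPM in the control, and to 590, 1748 and 1073 CPM and 651, 1040 and 661 CPM in the libraries labelled mutant. The neutrophil and bone marrow lists had values below 0 on balance. The neutrophil list had an averaged median log2 fold change of -0.92. Of its 8 genes 0 were called by edgeR and 2 had an unadjusted p under 0.05. The progenitor list had a median of -1.03, and 4 of its 7 genes were called lower and 1 higher. With the mean log2 level of the neutrophil list as a covariate, an alternative chosen after the data were seen, the median averaged log2 fold change of the 52 genes was 0.45, 50 of 52 were above 0 and 3 were called, Cdk4, Gins2 and Pcna. With the progenitor list in its place the median was 0.50 and the same 3 genes were called. Both lists fell on balance at 4dpl and moved in part with the 52 genes within groups. Adjusting for them by itself raises the lesion estimates, so the higher medians do not show what those cells contributed. Microglia markers summed to a mean of 3781 ± 1305 CPM (SD, n = 3) in unlesioned control tissue against 10564 ± 2721 CPM (SD, n = 3) at 4dpl, and 5 of 7 were called higher in the averaged comparison. For tissue labelled mutant the means were 5557 ± 3043 CPM (SD, n = 3) unlesioned and 9827 ± 2080 CPM (SD, n = 3) at 4dpl. Of 6 progenitor markers of the oligodendrocyte lineage, 3 were called higher, Pdgfra, Cspg4 and Gpr17. In the same averaged comparison 14.2% of all genes and 39.9% of genes at or above the mean level of the lowest of the 52 were called higher. Mutant 4dpl replicate 3, the library lowest in mitotic genes, was the highest of all 12 in summed oligodendrocyte markers. The part of these cell types in the values of the 52 genes was not tested beyond these fits.

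**Figure D3:**
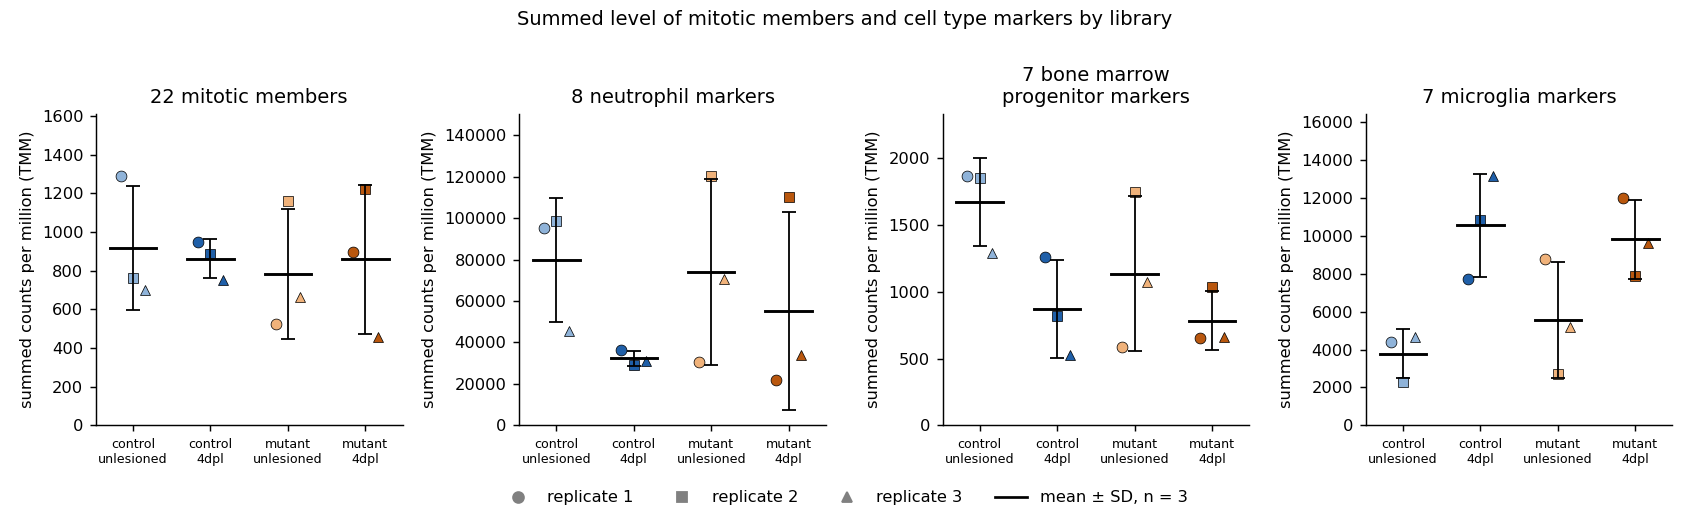
Summed CPM (y axes, from 0, a scale for each panel) of the 22 mitotic genes and of neutrophil, bone marrow progenitor and microglia markers in the 12 libraries by group (x axis). Symbols mark replicates, and bars give the mean and SD of 3 libraries. Replicate 2 of both groups labelled mutant is highest for mitotic genes, neutrophil markers and bone marrow progenitor markers, and lowest for microglia markers.

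Since the mitotic genes moved together, the bases before their start sites were searched for letters that such genes are known to share. A RefSeq promoter window was found for 41 of the 52 genes and for 27025 genes in all, and the 250 bases before the start were searched on both strands. The letters searched were CCAAT, bound by NF-Y, TTTGAA, the core of the cell cycle homology region that the DREAM complex binds, the E2F letters TTTCCCGC, TTTGGCGC, TTTCGCGC and TTTGCCGC, of which TTTGGCGC and TTTCGCGC can overlap on opposite strands, and CACGTG, the E-box bound by Myc and Max. Stretches of 150 bases are printed for example genes, read on the strand of the gene towards its start, with matches in either direction in capitals (GRCm38.p6). They are Top2a (chr11:99024190-99024339, minus strand), Cdk1 (chr10:69352913-69353062, minus strand) and Cdc20 (chr4:118437344-118437493, minus strand) as genes of chromosome separation and mitosis that were not called, Mcm6 (chr1:128359706-128359855, minus strand) as a helicase gene, and Cdk4 (chr10:127063385-127063534, plus strand) as the gene that rose.
Top2a: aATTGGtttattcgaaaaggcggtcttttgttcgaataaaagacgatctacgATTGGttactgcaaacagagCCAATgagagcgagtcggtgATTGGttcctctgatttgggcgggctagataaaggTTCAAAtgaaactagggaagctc
Cdk1: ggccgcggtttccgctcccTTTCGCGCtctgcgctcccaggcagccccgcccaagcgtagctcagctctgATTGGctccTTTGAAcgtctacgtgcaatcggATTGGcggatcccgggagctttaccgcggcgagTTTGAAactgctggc
Cdc20: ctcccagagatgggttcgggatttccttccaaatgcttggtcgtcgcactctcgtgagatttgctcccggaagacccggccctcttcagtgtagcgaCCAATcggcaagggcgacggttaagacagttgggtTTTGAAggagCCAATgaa
Mcm6: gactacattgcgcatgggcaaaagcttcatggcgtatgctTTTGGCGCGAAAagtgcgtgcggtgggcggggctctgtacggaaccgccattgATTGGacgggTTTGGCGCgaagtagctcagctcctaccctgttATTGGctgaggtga
Cdk4: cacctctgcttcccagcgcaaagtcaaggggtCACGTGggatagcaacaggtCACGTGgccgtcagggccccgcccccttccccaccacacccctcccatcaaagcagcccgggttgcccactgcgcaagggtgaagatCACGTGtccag
The stretches of Top2a, Cdk1 and Cdc20 hold both CCAAT and TTTGAA, and that of Cdk1 also TTTCGCGC. That of Mcm6 holds E2F letters with CCAAT, and that of Cdk4 holds 3 copies of CACGTG in this stretch and none of the other letters. CCAAT was found for 28 of 41 members (68.3%), against 37.5% of all genes with a window and 40.6% of the 8080 genes at the level of the members. Of the 17 mitotic genes with a window it was found for 14 (82.4%). TTTGAA was found for 10 members (24.4%), against 18.3% of all genes and 12.5% of genes at that level. All 10 also held CCAAT, and the letters together were found for 7.34% of all genes and 5.71% of genes at that level. Of the 17 mitotic genes with a window 6 (35.3%) held both. The E2F letters were found for 6 members (14.6%), 4 of them among the 8 origin and helicase genes with a window, against 2.16% of all genes and 4.02% at that level. CACGTG was found for 3 members (7.32%), Cdk4, Cdk6 and Tyms, against 6.86% of all genes and 10.38% at that level. These are matches of letters and not measured binding.

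Of the 3 inhibitors of cyclin-dependent kinases 0 were called by edgeR in the averaged comparison, and they were not tested against each other. Cdkn1a encodes p21, a p53 target that halts the cycle, and lies on chromosome 17 from 29090976 to 29100727. It was at 198, 106 and 115 CPM in control unlesioned libraries and at 155, 203 and 155 CPM at 4dpl. Mutant-labelled libraries held Cdkn1a at 80.5, 71.1 and 74.0 CPM unlesioned and at 127, 123 and 114 CPM at 4dpl. The mutant groups did not overlap and the control groups did, since control unlesioned replicate 1 was high. The log2 fold change was 0.29 in the control (edgeR adjusted p = 0.406) and 0.69 in the libraries labelled mutant (edgeR adjusted p = 0.0895). Averaged it was 0.49 (SE 0.18, edgeR adjusted p = 0.0394), which missed the unadjusted threshold. Limma voom called Cdkn1a (0.52, adjusted p = 0.0252), as did edgeR with no filter (0.59) or without control unlesioned replicate 1 (0.69). In all, 5 of 25 alternative settings called it.

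Cdkn1b encodes p27, the inhibitor that rises as progenitors leave the cycle, and lies on chromosome 6 from 134920401 to 134925513. It was at 17.4, 25.9 and 16.7 CPM in control unlesioned libraries and at 9.37, 14.7 and 10.5 CPM at 4dpl. The libraries labelled mutant held 10.96, 11.8 and 11.5 CPM of Cdkn1b unlesioned and 9.62, 16.9 and 11.5 CPM at 4dpl. Control groups did not overlap, with a log2 fold change of -0.80 (SE 0.27, edgeR adjusted p = 0.0701), while the libraries labelled mutant gave 0.15 and the average -0.32. DESeq2 called Cdkn1b lower in the control. Cdkn2c, an inhibitor of Cdk4 and Cdk6, had an averaged log2 fold change of 0.32.

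**Figure D4:**
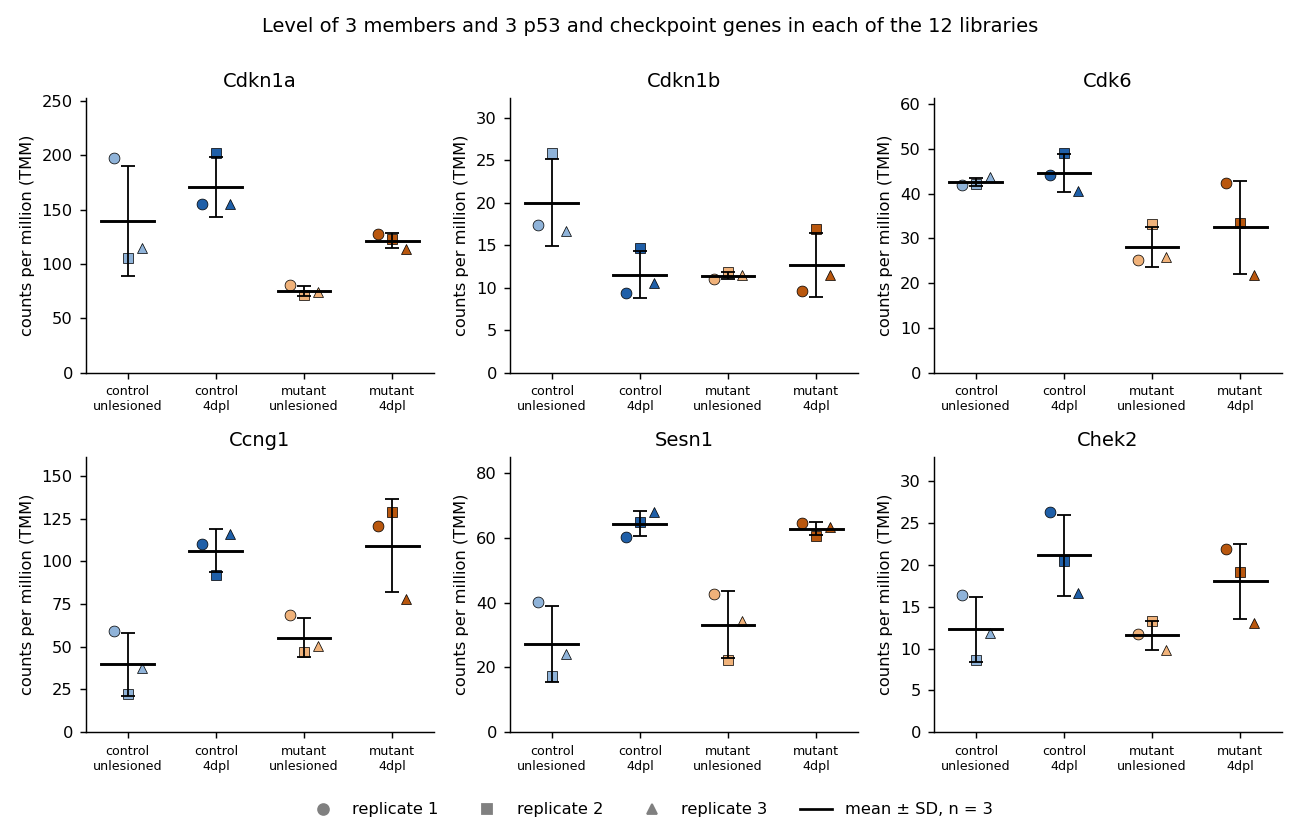
CPM (y axis, from 0) of the inhibitors Cdkn1a and Cdkn1b, of Cdk6 and of the p53 and checkpoint genes Ccng1, Sesn1 and Chek2 in the 12 libraries by group (x axis). Symbols mark replicates, and bars give the mean and SD of 3 libraries. Cdkn1a and Cdk6 are lower in the unlesioned libraries labelled mutant than in all unlesioned control libraries, and Ccng1 and Sesn1 are higher at 4dpl in both genotypes.

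Beyond the 52 genes, 83 further genes of the same pathways were examined, and 4 were called higher and 0 lower at 4dpl in the averaged comparison. Of all genes tested 14.2% were called higher, and 39.9% of genes at or above the mean level of the lowest of the 52. The median log2 fold change of the 83 was 0.13, with 53 above 0. Among 15 further inhibitors and p53 targets 2 were called, Ccng1 and Sesn1, both known to be induced by p53. The rest of this list, Mdm2 and Btg2 among them, were not called. The median of the 15 was 0.38 with 12 above 0, against a median of 0.46 over genes of that level. A p53 response as such was not tested. Ccng1 was at 59.1, 22.5 and 37.8 CPM in control unlesioned libraries and at 110, 92.3 and 116 CPM at 4dpl, and at 68.7, 47.0 and 50.6 CPM and 121, 129 and 78.1 CPM in the libraries labelled mutant. Sesn1 was at 40.3, 17.5 and 24.0 CPM and 60.5, 64.9 and 68.01 CPM in the control, and at 42.8, 22.2 and 34.4 CPM and 64.6, 60.8 and 63.5 CPM in the libraries labelled mutant. Every library at 4dpl was above every unlesioned library for both genes, an arrangement found in 7.44% of all genes tested. The averaged log2 fold change was 1.198 for Ccng1 (SE 0.22, edgeR adjusted p = 0.0038) and 1.08 for Sesn1 (SE 0.21, edgeR adjusted p = 0.0040), and both were also called within the control. Trp53 itself, which encodes p53, had 0.44 (SE 0.16, edgeR adjusted p = 0.0417) and missed the unadjusted threshold.

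Among 8 further regulators of the G2 transition, Chek2, the checkpoint kinase of the DNA damage response, was called. It was at 16.4, 8.69 and 11.9 CPM in control unlesioned libraries and at 26.3, 20.5 and 16.6 CPM at 4dpl, and at 11.7, 13.3 and 9.81 CPM and 21.9, 19.2 and 13.03 CPM in the libraries labelled mutant. Control groups did not overlap, a single pair of mutant libraries crossed, and the averaged log2 fold change was 0.71 (SE 0.20, edgeR adjusted p = 0.0159), a call lost without control 4dpl replicate 1 (0.64). Chek1 had -0.20 and the phosphatase Cdc25a -0.46, and neither passed the test. Among 30 further mitosis genes Anln was called, at 0.80 (SE 0.25, edgeR adjusted p = 0.0230), while Espl1 had 0.44 and Pbk 0.45, neither called. Anln encodes anillin, which acts in cytokinesis and also in myelin, where it scaffolds septins. The mean level of Anln was 126 ± 31.2 CPM (SD, n = 3) for unlesioned control tissue and 197 ± 15.6 CPM (SD, n = 3) for control 4dpl. Tissue labelled mutant had means of 144 ± 77.7 CPM (SD, n = 3) and 280 ± 83.8 CPM (SD, n = 3), and its 4dpl replicate 3 reached 376 CPM. The call of Anln was lost in 7 of the 12 fits that left out 1 library, namely control unlesioned replicate 2 or 3, control 4dpl replicate 1 or 3, mutant unlesioned replicate 2 or 3 and mutant 4dpl replicate 3, where its value ran from 0.66 to 0.81.

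Of 20 further replication genes 0 were called by edgeR, and 0 had an unadjusted p under 0.05, with averaged log2 fold changes of 0.31 for Rfc3, 0.32 for Slbp and 0.39 for Chaf1b. Of 10 further E2F and retinoblastoma genes 0 were called by edgeR and 4 had an unadjusted p under 0.05. Rbl2, a pocket protein that restrains E2F targets in resting cells, had 0.73 (SE 0.26, edgeR adjusted p = 0.0368), E2f3 had 0.52 and E2f2 had -0.64 (SE 0.26, edgeR adjusted p = 0.0642). DESeq2 called E2f2 lower, as did edgeR without control unlesioned replicate 3 (-0.80). Rbl2 was called higher in 9 of 25 alternative settings. Among them were limma voom (0.84, adjusted p = 0.0165), no filter on low counts and each replicate block.

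The genotypes were compared to ask whether loss of Tet1 in the lineage altered these genes. In unlesioned tissue 0 of 52 were called between libraries labelled mutant and control by edgeR, as were 0% of all genes tested, and 3 had an unadjusted p under 0.05. DESeq2 and limma voom also called 0 of the 52. The values leaned one way, with 47 of 52 below 0 in the libraries labelled mutant and a median log2 difference of -0.24, against -0.05 over genes of their level. The mitotic and origin genes move together between libraries and control unlesioned replicate 1 was highest for 50 of the 52, so these are not 52 separate observations. The lean rested on that library, since without control unlesioned replicate 1 the median was 0.09 and 30 of 52 were above 0. Without mutant unlesioned replicate 2 the median was -0.60 and 11 of 52 had an unadjusted p under 0.05, and without control unlesioned replicate 2 or 3 it was -0.38 or -0.42. With the progenitor list as a covariate the median was -0.01 and 26 of 52 were above 0, and with the neutrophil list it was -0.23 and 7 of 52 were above 0. Both covariates were chosen after the data were seen. The progenitor sum was highest in the same replicate of each unlesioned group as most of the 52 genes. These fits therefore do not show what such cells contributed. Cdkn1a had the smallest p of the 52, at a log2 difference of -0.89 (SE 0.25, edgeR adjusted p = 0.696), and its unlesioned libraries labelled mutant all lay below the control. Cdkn1b had -0.81 (SE 0.27, edgeR adjusted p = 0.748) and Cdk6 -0.60 (SE 0.24, edgeR adjusted p = 0.866). Cdk6 was at 42.0, 42.3 and 43.7 CPM in control unlesioned libraries and at 25.3, 33.3 and 25.9 CPM in those labelled mutant. Libraries did not overlap for 4 of the 52, all lower in the libraries labelled mutant (Cdk6, Gins1, Cdkn1a and Cdkn1b), where 6.28% of all genes were lower without overlap and 4.09% higher. Erythroid markers also differed between these groups, with a summed mean of 66811 ± 31454 CPM (SD, n = 3) for control tissue against 26107 ± 11329 CPM (SD, n = 3) for tissue labelled mutant, and their part in these values was not tested.

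At 4dpl 0 of 52 were called between genotypes by edgeR, as were 0% of all genes tested, and 0 had an unadjusted p under 0.05. DESeq2 and limma voom called 0 of the 52 as well. The median log2 difference was -0.08, with 17 of 52 above 0, and its direction depended on single libraries. Without mutant 4dpl replicate 3 it was 0.18 with 34 of 52 above 0, without mutant 4dpl replicate 2 it was -0.36 with 1 above 0, and without control 4dpl replicate 3 it was -0.26 with 6 above 0. Markers of other cells differed in this comparison, with a median log2 difference of 0.82 for the 8 neutrophil markers and 0.69 for the 7 oligodendrocyte markers, all above 0 and 0 called by edgeR (0 and 1 with an unadjusted p under 0.05). With the neutrophil list as a covariate the median of the 52 genes was -0.28 and 1 was above 0. Cdkn1a had -0.49 (95% interval -1.03 to 0.04, edgeR adjusted p = 0.765), Cdk6 had -0.46 (95% interval -0.97 to 0.05, edgeR adjusted p = 0.774) and Cdk4 had -0.33 (95% interval -0.77 to 0.11, edgeR adjusted p = 0.845). Cdk6 was at 44.2, 49.2 and 40.6 CPM in the control and at 42.3, 33.4 and 21.7 CPM in the libraries labelled mutant. Libraries did not overlap for 6 of the 52, all lower in the libraries labelled mutant (Cdk4, Cdt1, Mcm3, Gins2, Pcna and Cdkn1a), where 5.44% of all genes were lower without overlap and 7.34% higher. Intervals of the markers were wide, from -0.95 to 0.64 for Mki67 and from -0.78 to 0.67 for Top2a, so differences of moderate size were not detectable with 3 libraries a group.

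The change after lesion did not differ between genotypes for any of the 52 by edgeR's interaction test, in which 0% of all genes were called, and 1 of the 52, Cdkn1b, had an unadjusted p under 0.05. DESeq2 and limma voom called 0. The median difference of the changes over the 52 was 0.15 with 40 above 0. With libraries blocked by the study's sample numbers it was -0.66 with 4 above 0. The difference of the changes, mutant minus control, was 0.95 for Cdkn1b (95% interval 0.12 to 1.78, edgeR adjusted p = 0.9999), 0.63 for Cdc45 (95% interval -0.51 to 1.76) and 0.40 for Cdkn1a (95% interval -0.36 to 1.16). For Cdk4 it was -0.01 (95% interval -0.63 to 0.61). Cdc45, which travels with the helicase, was at 43.9, 25.6 and 20.9 CPM in control unlesioned libraries and 22.8, 20.5 and 16.5 CPM at 4dpl, and at 14.2, 26.5 and 19.7 CPM and 17.3, 33.1 and 11.3 CPM in the libraries labelled mutant, with overlap in both genotypes.

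Per kilobase of exon, which allows genes to be set side by side, the order of the 52 genes was led by Pcna at 44.2, Rrm2 at 37.0, Cdkn1a at 35.7, Ccnb2 at 34.04 and Cdk4 at 31.0 CPM per kb, averaged over the groups. The lowest were Cdc6 at 2.67, Cdk6 at 2.64, Mybl2 at 2.54, Gins2 at 2.28 and Cenpf at 1.84 CPM per kb. The markers Top2a and Mki67 stood in between at 11.4 and 9.26 CPM per kb. Neighbours in this order were not tested against each other.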

How the data were processed

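The deposited values are raw gene counts, 1 table per library. Per the study's methods the authors aligned reads with BWA and counted them with featureCounts on Ensembl genes of GRCm38, whereas the submitters' processing notes list STAR, DESeq2 1.2.5 and mm10. The strand setting is not given in the sources used here. The 54838 listed genes include 37 mitochondrial genes that all stand at 0. Groups came from GEO's labels. Genes were filtered with filterByExpr (31109 kept), scaled by TMM and tested with edgeR 4.0.16 (R 4.3.3) by the quasi-likelihood test with group means over all 12 libraries. Contrasts were 4dpl against unlesioned in each genotype and averaged, mutant against control in each state, and the interaction. A call needed p under 0.01 and Benjamini-Hochberg adjusted p under 0.05. DESeq2 1.42.0, limma 3.58.1 (voom), other filters and scalings, replicate blocks and fits without 1 library were alternatives. The members, the further pathway and marker lists, and the genes named were chosen with earlier results of these data known. Values per library are given for Mki67, Top2a, Cdk1, Ccnd1 and Cdkn1a, the 2 members of smallest p in each of 9 role lists in the averaged lesion contrast, every member called after lesion and the 3 members of smallest p in each genotype contrast and the interaction. Of the further pathway lists the 3 genes of smallest p each are named, and other genes by values only. Sequences came from RefSeq promoter windows (GRCm38.p6). The statistics were tested on simulated data.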

Additional observations from a re-analysis of the deposited data

How the results depend on the processing

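With 3 libraries a group, single libraries decided most calls. Among values of named genes under all alternatives, 936 kept direction and side of the threshold, 55 passed it newly, 49 no longer passed and 29 turned sign; the cause was not tested. The number of the 52 genes called higher in the averaged comparison, 4, became 1 with RLE size factors, with at least 10 counts in every library or with a block by the study's sample numbers, 7 with no filter, 13 with voom sample weights and 8 at adjusted p under 0.10. The number lower, 0, became 2 (Ccnd2 and Cdkn1b) with at least 10 counts in every library. In the control, the 1 called higher became 0 with that filter, with only the compared groups fitted, with the study-number block and with either marker covariate, and 9 with voom sample weights. The 0 called lower became 1, Cdkn1b, with that filter, DESeq2, voom sample weights, adjusted p under 0.10 and either block by label number. In the libraries labelled mutant, 0 called higher became 1 with DESeq2, edgeR with legacy set to FALSE and voom, 7 with voom sample weights and 3 at adjusted p under 0.10. Leaving out 1 library gave 1 to 10 called higher in the averaged comparison, 0 to 9 in the control and 0 to 3 in the libraries labelled mutant. Genotype and interaction counts stayed 0 under every alternative that gave them.

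RLE scaling moved the median of all genes from -0.28 to -0.38 and that of the 52 genes from 0.06 to -0.04, the difference between them being 0.34 in both. That difference was not stable to the filter, at -0.23 with at least 10 counts in every library (members -0.23, all genes 0.0039) and 0.99 with no filter, and it was 0.56 with voom sample weights. Averaged log2 fold changes near 0 turned sign. Cdk1 was -0.10 with RLE and DESeq2, -0.30 with at least 10 counts in every library and -0.0184 with voom, and leaving out 1 library gave -0.14 to 0.18. Top2a was -0.0209 with RLE and DESeq2 and -0.21 with that filter, and leaving out 1 library gave -0.0708 to 0.27. That filter also gave -0.0096 for Foxm1 and -0.0235 for Prc1. With the neutrophil covariate Mki67 was 0.11, Ccne1 0.0064, Mybl2 0.007 and Ube2c 0.0804. With the progenitor covariate Mki67 was 0.13, Ccne1 0.0487, Mybl2 0.0561, Ube2c 0.16, Cdc25a 0.0099 and Chek1 0.033. Both covariates were chosen after the data were seen.

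The labels number replicates within groups but do not tie them to mice. Same-numbered libraries correlated in their deviations from group means at 0.19, 0.05 and 0.19 in the control and -0.03, 0.07 and -0.07 in the libraries labelled mutant, and over the 52 genes alone at 0.59, 0.44 and 0.54 and at 0.24, 0.50 and -0.17. Since not every pair was above 0.1 on either measure, the numbers were not taken as pairs, although most pairs did deviate together over the 52 genes. A replicate block by label number gave 5 genes higher in the averaged comparison, 6 when nested within genotype, with Cdk1 at -0.0145 and -0.0122. The block by study number gave Cdk1 -0.10 and interaction values of -0.38 for Cdc45 and -0.0138 for Cdkn1a. It also turned the 52 genes as a set. Their lesion median went from -0.01 to 0.43 in the control and from 0.19 to -0.20 in the libraries labelled mutant. The interaction median went from 0.15 (40 of 52 above 0) to -0.66 (4 above 0). Libraries sharing a study number correlated over the 52 genes at -0.36 and -0.17 in the control and at 0.24 and -0.48 in the libraries labelled mutant.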
